A study of Mus musculus with 28 samples.

Results

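The 10 genes H2-K1, H2-D1, B2m, Tap1, Tap2, Tapbp, Psmb8, Psmb9, Nlrc5 and Erap1 make up the set described here, the core of MHC class I antigen presentation in the mouse. They were picked by symbol, by their role in the pathway, out of 55291 genes in the expression tables. All 10 passed the filter on low values in each of the 3 tables. RNA sequencing covered 28 libraries in 8 groups.

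LLC is a mouse lung carcinoma line, and all culture groups came from this single line with a wild-type label. BAY-876 blocks GLUT1, a glucose transporter, and TNF is an inflammatory cytokine that acts largely through NF-kappaB. One experiment set 36 h of 200 nM BAY-876 against vehicle in LLC cells, each in 3 libraries. The next had 4 groups of 3 libraries, a vehicle control, either agent alone, and TNF together with BAY-876. Cells of that experiment spent 24 h with 200 nM BAY-876 or without it, and then 32 h with 20 ng/ml TNF or without it. The labels do not say whether BAY-876 stayed in the medium during those 32 h. For 2 of the 3 libraries with both agents the treatment label carries a different compound number from the title, and the title was followed. For the last, tumour cells (5 libraries) and OT1 T cells (5 libraries) were sorted on day 16 from subcutaneous LLC-OVA-NGFR tumours. OVA is ovalbumin, and the transgenic receptor of OT1 cells, a kind of CD8 T cell, binds a peptide of it. The mice were Rag1 ko, so they lacked T and B cells but kept other host cells, and activated OT1 cells were transferred on day 9. All tumours of that experiment received T cells, so the data hold no tumour without them, and the labels do not name the sort markers. Whether replicates are separate cultures or animals is not stated, so p-values measure only the spread between these libraries, which may be technical.

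MHC class I molecules carry peptides from inside the cell to its surface, where CD8 T cells read them. Proteasomes cut proteins into peptides, the TAP transporter carries the peptides into the endoplasmic reticulum, an aminopeptidase trims them, and tapasin helps to load them on a heavy chain that is paired with beta-2 microglobulin. Interferon gamma and TNF are both known to raise class I genes, interferon through IRF1 and the coactivator NLRC5, and TNF through NF-kappaB sites in the promoters. Tumour cells with little class I are seen poorly by CD8 T cells, and OT1 cells read their peptide on the product of H2-K1 in this strain.

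The promoters of the light chain and of both classical heavy chains are shown first because these genes rose with TNF and because their kappaB elements can be seen in the letters. RefSeq promoter windows of GRCm38.p6, 250 bases before to 50 after the start, were found for 8 of the 10 members. They were searched on both strands for the kappaB element, the interferon-stimulated response element (GAAA, any 2 bases, GAAA), the GAS element TTCNNNGAA, the TGACG core of a CREB site and CCAAT. The H2-K1 stretch lies at chr17:34000432-34000461 on the minus strand, the H2-D1 stretch at chr17:35262920-35262949 on the plus strand, and the B2m stretch at chr2:122147542-122147644 on the plus strand. Capitals mark the kappaB letters in H2-K1 and H2-D1, and in B2m, from left to right, the interferon-stimulated response element, the kappaB element, TGACG and CCAAT, the last read on the other strand.
H2-K1: gctGGGGATTCCCCatctccacagtttcac
H2-D1: gctGGGGATTCCCCatctcctcagtttcac
B2m: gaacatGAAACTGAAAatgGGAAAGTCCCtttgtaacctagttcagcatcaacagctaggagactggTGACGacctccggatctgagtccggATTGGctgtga
Both heavy chain stretches differ at 1 of 30 bases, and over 100 bases from the kappaB letters onward, without gaps, at 11. In each of them the capitals hold 2 overlapping kappaB matches, a base apart. In B2m the 4 marked elements do not overlap each other.

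A kappaB match was in 3 of the 8 members with a window, H2-K1, H2-D1 and B2m, against 8.46% of 32851 promoters of the same length. With TNF these rose by 3.20-fold, 1.36-fold and 1.59-fold. Tapbp and Psmb8 had no kappaB match in their windows and rose by 2.81-fold and 1.91-fold. A link between these letters and the rise was not tested. The letters GAAA, any 2 bases, GAAA were in B2m and Erap1, against 3.44% of promoters. Variants of the interferon-stimulated response element were not searched, so members without these exact letters, H2-K1 and H2-D1 included, may still hold one. GAS letters were in Psmb8 alone of the members with a window, against 8.30%. TGACG was in H2-K1, H2-D1, B2m, Tap1 and Psmb9, against 20.8%. CCAAT was in those 5 and in Tapbp, against 37.4%. Psmb9 and Tap1 face away from each other, with RefSeq starts on chromosome 17 at 34187330 and 34187556 and 225 bases between them, so their windows overlap. These matches are descriptions of letters and not of binding.

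In GENCODE M21 on GRCm38 all 10 are protein-coding genes, and 7 of them lie on chromosome 17. Psmb9, Tap1, Psmb8 and Tap2 form a cluster from 34181987 to 34216321, which is 34.3 kb long. Tapbp lies at 33915899 to 33929292, H2-K1 at 33996017 to 34000347 and H2-D1 at 35262730 to 35267499. B2m is on chromosome 2 at 122147686 to 122153083, Nlrc5 on chromosome 8 at 94434356 to 94527272 and Erap1 on chromosome 13 at 74639568 to 74693201. The Psmb9 and Tap1 annotations overlap on opposite strands, and Tapbp overlaps Zbtb22 on the same strand. The sources used here do not say whether counting used strand. Of the stretches of 31 bases in their transcripts, H2-K1 shared 20.3% and H2-D1 27.6% with other genes, mostly each other and the H2-Q genes. The split of reads between such copies is uncertain. Tapbp shared 5.54% and Tap1 1.48%, and the others shared less than Tap1.

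The 32 h and day 16 tables hold TPM, a level per transcript length that adds up to 1000000 in every library, and their depth is unknown. The 36 h table holds normalized counts, with sums per library from 16848000 to 17134500. Among markers of other cell types, the summed TPM of 18 myeloid genes was 14.4 to 26.7 in the culture libraries at 32 h and 53.0 to 172 in the tumour libraries. It reached 2352 to 18736 in the OT1 libraries, in which all 18 were detected. The 12 T cell markers summed to 2792 to 4430 TPM in OT1 and 8.77 to 13.1 TPM in tumour libraries. The 10 tumour cell markers summed to 1895 to 2083 TPM in tumour libraries, 63.4 to 236 TPM in OT1 libraries and 1227 to 1864 TPM in culture at 32 h, where Epcam was listed at 0. In culture at 32 h the largest T cell marker was Cd247, and Cd3d was listed at 0 in each group. The 5 erythroid markers summed to 10.1 to 899 TPM in tumour and 65.0 to 2781 TPM in OT1 libraries. In culture at 32 h their sum was 0.256 to 2.40 TPM. The 7 fibroblast markers summed to 333 to 843 TPM in tumour libraries and 304 to 869 TPM in culture at 32 h, most of it Col3a1. Col1a1, the lowest of them in control, averaged 0.189 TPM there and 49.4 TPM in tumour libraries. Whether host cells gave this RNA was not tested. In bulk RNA, fewer cells of a type and less RNA per cell cannot be told apart.

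TNF alone, against control, raised 6 of the 10 genes at 32 h and lowered none of them. They were both heavy chains, the light chain, tapasin, the immunoproteasome subunit Psmb8 and, by a small step, the TAP subunit Tap2. Of all 12780 genes tested, limma called 19.4% higher and 26.1% lower, at a Benjamini-Hochberg adjusted p under 0.05. Libraries of the groups did not overlap for 7 of the 10, all higher, as for 23.8% of all genes in that direction and 32.1% in the other. The median log2 difference of the 10 genes was 0.55, against −0.06 over all genes tested. All fold changes are on the log2(TPM + 1) scale, which understates those of low genes such as Nlrc5.

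H2-K1, the heavy chain that presents the OT1 peptide, was at 66.8, 70.1 and 76.8 TPM in control libraries and 233, 222 and 235 TPM with TNF. All TNF libraries were far above all controls, by 3.20-fold (log2 1.68, SE 0.08, limma adjusted p = 2.16e-08). H2-D1, the other classical heavy chain of this strain, was at 369.8, 366 and 374 TPM in control and 514, 508 and 489.9 TPM with TNF. Its groups were also apart, but the step was 1.36-fold (log2 0.45, SE 0.04, limma adjusted p = 1.49e-06). B2m, which encodes the light chain, was the most abundant of the 10 per length, at 450.3, 449 and 432 TPM in control. With TNF it read 709, 717 and 693 TPM, which was 1.59-fold higher (log2 0.67, SE 0.04, limma adjusted p = 6.05e-08).

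Of the loading genes, Tapbp, which encodes tapasin, moved most. It read 135, 105 and 104 TPM in control and 343, 327 and 295 TPM with TNF, 2.81-fold more (log2 1.49, SE 0.09, limma adjusted p = 2.00e-07). Control replicate 1 was the highest of its group, and still far below each TNF library. The TAP subunits did less. Tap2 was at 43.9, 45.9 and 45.4 TPM in control and 51.2, 50.8 and 51.7 TPM with TNF, a tight 1.13-fold step (log2 0.18, SE 0.05, limma adjusted p = 0.00968). Tap1 was at 9.37, 10.0 and 9.94 TPM in control and 10.5, 9.59 and 10.9 TPM with TNF, so the groups overlapped (log2 0.07, SE 0.10, limma adjusted p = 0.594).

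The immunoproteasome genes of the same cluster also parted. Psmb8, the inducible subunit that takes the place of Psmb5, read 28.8, 30.9 and 26.4 TPM in control and 57.2, 53.1 and 56.6 TPM with TNF. That was a 1.91-fold difference with no overlap (log2 0.93, SE 0.06, limma adjusted p = 2.76e-07). Psmb9, the inducible counterpart of Psmb6, read 8.61, 7.19 and 6.59 TPM in control and 6.77, 6.79 and 7.45 TPM with TNF (log2 −0.07, SE 0.14, limma adjusted p = 0.710). Its values overlapped.

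Nlrc5 and Erap1 did not pass. Nlrc5, the class I coactivator, was near the filter, at 2.20, 2.19 and 1.75 TPM in control and 3.12, 2.95 and 2.68 TPM with TNF (log2 0.36, SE 0.31, limma adjusted p = 0.376). The TNF libraries were all above the controls, and with only these 6 libraries fitted the limma adjusted p was 0.0481. Erap1, the aminopeptidase that trims peptides, was at 20.6, 9.63 and 9.29 TPM in control and 25.1, 15.5 and 20.0 TPM with TNF (log2 0.64, SE 0.27, limma adjusted p = 0.0686). Control replicate 1 lay inside the TNF range, and without it the difference was log2 0.99 (limma adjusted p = 0.00248). Without TNF replicate 2 it was log2 0.81 (limma adjusted p = 0.0460), and after quantile normalization log2 0.76 (limma adjusted p = 0.0452).

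**Figure D1:**
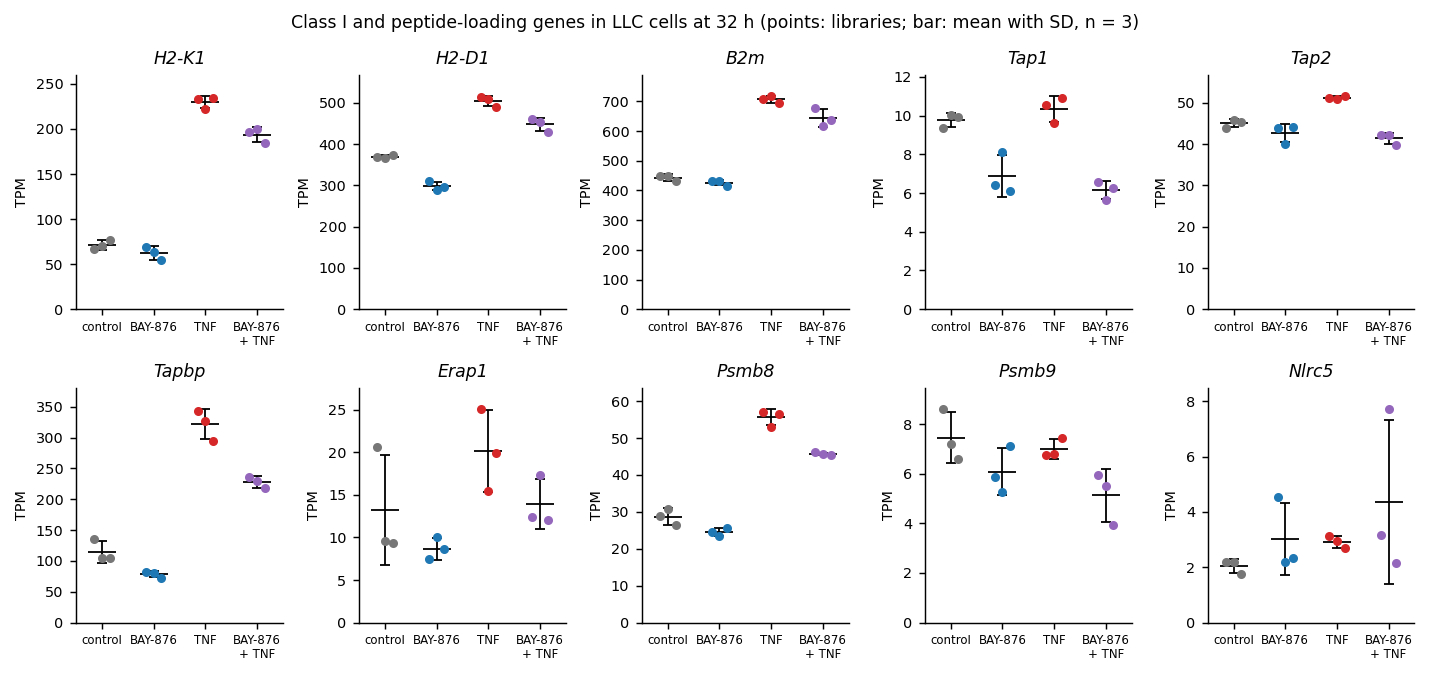
TPM of each gene in the 12 LLC libraries at 32 h, by group, on linear axes from 0; points are libraries and bars the mean with SD (n = 3). H2-K1, Tapbp and Psmb8 show TNF and BAY-876 with TNF libraries above all libraries without TNF, whereas Tap1 and Psmb9 do not, and single high libraries stand out for Erap1 (20.6 TPM in control) and Nlrc5 (7.71 TPM with both agents).

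In cells pretreated with BAY-876, TNF raised 5 of the 10 genes and lowered none. The shares of all genes called were 19.3% higher and 24.8% lower. Groups without overlap were found for 6 of the 10, all higher, against 22.7% of all genes higher and 29.9% lower. H2-K1 was 3.08-fold higher with TNF (log2 1.62, SE 0.08, limma adjusted p = 2.83e-08), at 196, 200.5 and 184 TPM against 69.6, 63.3 and 54.5 TPM with BAY-876 alone. Tapbp was 2.89-fold higher (log2 1.53, SE 0.09, limma adjusted p = 1.69e-07), at 237, 229 and 218 TPM against 81.7, 80.1 and 72.9 TPM. Neither gene had overlapping groups. Psmb8 was 1.83-fold, B2m 1.505-fold and H2-D1 1.498-fold higher (log2 0.87, 0.59 and 0.58, each with limma adjusted p of 4.85e-07 or below). Tap1, Tap2 and Psmb9 had log2 differences of −0.13, −0.04 and −0.22 and did not pass. Nlrc5 was at log2 0.32 (SE 0.31, limma adjusted p = 0.437), with 3.17, 7.71 and 2.17 TPM against 4.52, 2.19 and 2.35 TPM. Erap1 was at log2 0.61 with groups that did not overlap (limma adjusted p = 0.0836), and it passed when only the libraries of both groups were fitted (limma adjusted p = 0.0163).

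The response to TNF was then compared between cells with and without BAY-876 by the interaction term of the same fit. It was called for none of the 10 genes, against 1.56% of all genes in either direction, 0.736% higher and 0.822% lower. At an unadjusted p under 0.05 there were 2, H2-D1 higher and Tap2 lower, and the share of all genes at that looser threshold is not given. The difference was 0.14 for H2-D1 (SE 0.05, limma adjusted p = 0.233) and −0.22 for Tap2 (SE 0.07, limma adjusted p = 0.151). For H2-K1 it was −0.06 (SE 0.11), for Tapbp 0.04 (SE 0.13), for Psmb8 −0.06 (SE 0.09) and for B2m −0.08 (SE 0.05). Missing the threshold does not show that the responses were equal.

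BAY-876 without TNF lowered 4 of the 10 genes at 32 h and raised none, while 25.8% of all genes were called lower and 11.5% higher. For 5 of the 10 the libraries did not overlap, all of them lower, against 34.5% of all genes lower and 16.4% higher. The median log2 difference of the 10 was −0.24, against −0.09 over all genes tested. After quantile normalization the whole-table split moved from 1473 higher and 3303 lower to 2238 higher and 2305 lower, and 3 of the 10 were then called lower. Tapbp fell from 135, 105 and 104 TPM to 81.7, 80.1 and 72.9 TPM (log2 −0.54, SE 0.09, limma adjusted p = 0.000980). Tap1 fell from 9.37, 10.0 and 9.94 TPM to 6.44, 8.09 and 6.10 TPM (log2 −0.46, SE 0.10, limma adjusted p = 0.00439). Neither overlapped its control.

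H2-D1 fell from 369.8, 366 and 374 TPM to 310.0, 289.8 and 297 TPM (log2 −0.31, SE 0.04, limma adjusted p = 6.89e-05). Psmb8 fell by less, to 24.6, 23.3 and 25.6 TPM (log2 −0.22, SE 0.06, limma adjusted p = 0.0155). Its call was lost after quantile normalization (log2 −0.12, limma adjusted p = 0.127) and without control replicate 2 (limma adjusted p = 0.0659) or BAY-876 replicate 2 (limma adjusted p = 0.0601). H2-K1 was at 69.6, 63.3 and 54.5 TPM, which overlapped control (log2 −0.19, SE 0.08, limma adjusted p = 0.0766), and it passed without BAY-876 replicate 1 (log2 −0.27, limma adjusted p = 0.0180). B2m, at 431.63, 431.4 and 417 TPM against 450.3, 449 and 431.69 TPM, missed overlap narrowly and was at log2 −0.06 (SE 0.04, limma adjusted p = 0.248). Tap2 was at log2 −0.08 (SE 0.05), Psmb9 at −0.26 (SE 0.14), Erap1 at −0.47 (SE 0.27) and Nlrc5 at 0.35 (SE 0.31), and none of these 4 passed.

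In TNF-treated cells, BAY-876 lowered 7 of the 10 genes and raised none, against 23.6% of all genes lower and 10.4% higher. The groups did not overlap for 8 of the 10, all lower, against 30.5% of all genes lower and 14.4% higher. The median log2 difference of the 10 was −0.29, against −0.08 over all genes. Quantile normalization moved the whole-table split from 1323 higher and 3018 lower to 1860 higher and 2048 lower, and left 6 of the 10 called lower. This comparison shares its TNF libraries with that of TNF against control, so the values of both are not independent.

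Tap1 fell most among the 10. It read 10.5, 9.59 and 10.9 TPM with TNF and 6.59, 5.64 and 6.24 TPM with both agents (log2 −0.66, SE 0.10, limma adjusted p = 0.000491). Tapbp fell from 343, 327 and 295 TPM to 237, 229 and 218 TPM (log2 −0.49, SE 0.09, limma adjusted p = 0.00189). Tap2 fell from 51.2, 50.8 and 51.7 TPM to 42.1, 42.3 and 39.9 TPM (log2 −0.30, SE 0.05, limma adjusted p = 0.000714). The TNF libraries were thus above the libraries with both agents for all 3 genes of peptide transport and loading. Psmb8 fell to 46.1, 45.6 and 45.5 TPM (log2 −0.28, SE 0.06, limma adjusted p = 0.00463). H2-D1 fell to 459.8, 454 and 430.2 TPM (log2 −0.17, SE 0.04, limma adjusted p = 0.00351), and B2m fell to 676, 617 and 636 TPM (log2 −0.14, SE 0.04, limma adjusted p = 0.0126).

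H2-K1 fell to 196, 200.5 and 184 TPM (log2 −0.25, SE 0.08, limma adjusted p = 0.0307). Its call was lost with no filter on low values (limma adjusted p = 0.0669), after quantile normalization (limma adjusted p = 0.0533) and without TNF replicate 1 or 3 or replicate 1 or 3 of the combination (limma adjusted p = 0.0557 to 0.0999763). Psmb9 went from 6.77, 6.79 and 7.45 TPM to 5.96, 5.51 and 3.93 TPM, without overlap (log2 −0.40, SE 0.14, limma adjusted p = 0.0527). It passed with a stricter filter (limma adjusted p = 0.0461), without BAY-876 replicate 3 (limma adjusted p = 0.0475) and without combination replicate 1 (limma adjusted p = 0.0321). Erap1 (log2 −0.50, SE 0.27) and Nlrc5 (log2 0.31, SE 0.31) did not pass, and combination replicate 2 was the highest of its group for both, at 17.4 and 7.71 TPM.

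Set against vehicle control, BAY-876 with TNF left 5 of the 10 genes higher and 2 lower, where 20.9% and 37.9% of all genes were called. Groups without overlap were found for 5 higher and 3 lower members, against 22.5% and 40.5% of all genes. H2-K1 was 2.70-fold, Tapbp 1.99-fold, Psmb8 1.58-fold, B2m 1.45-fold and H2-D1 1.21-fold higher (log2 1.43, 1.00, 0.66, 0.53 and 0.28, each with limma adjusted p of 4.07e-05 or below). Tap1 was lower, at 6.59, 5.64 and 6.24 TPM against 9.37, 10.0 and 9.94 TPM (log2 −0.59, SE 0.10, limma adjusted p = 0.000358). Psmb9 was lower as well, at log2 −0.47 (SE 0.14, limma adjusted p = 0.0145). The Psmb9 call was lost after quantile normalization (log2 −0.17, limma adjusted p = 0.306) and without control replicate 1 (limma adjusted p = 0.0628) or combination replicate 3 (limma adjusted p = 0.0605). Quantile normalization shifted the median of all genes in this comparison by 0.15, and the whole-table split from 2671 higher and 4840 lower to 3676 higher and 3504 lower. Under it the 5 higher genes were at log2 0.18 to 1.42, Tap1 at −0.31 (limma adjusted p = 0.0236) and Nlrc5 was called at 0.97 (limma adjusted p = 0.0184). Tap2 (log2 −0.12), Nlrc5 (log2 0.68) and Erap1 (log2 0.15) were not called in the fit without it. Nlrc5 also passed without combination replicate 3 (log2 0.99, limma adjusted p = 0.0170), and Tap2 with no filter (limma adjusted p = 0.0481) and without BAY-876 replicate 2 (limma adjusted p = 0.0373).

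**Figure D2:**
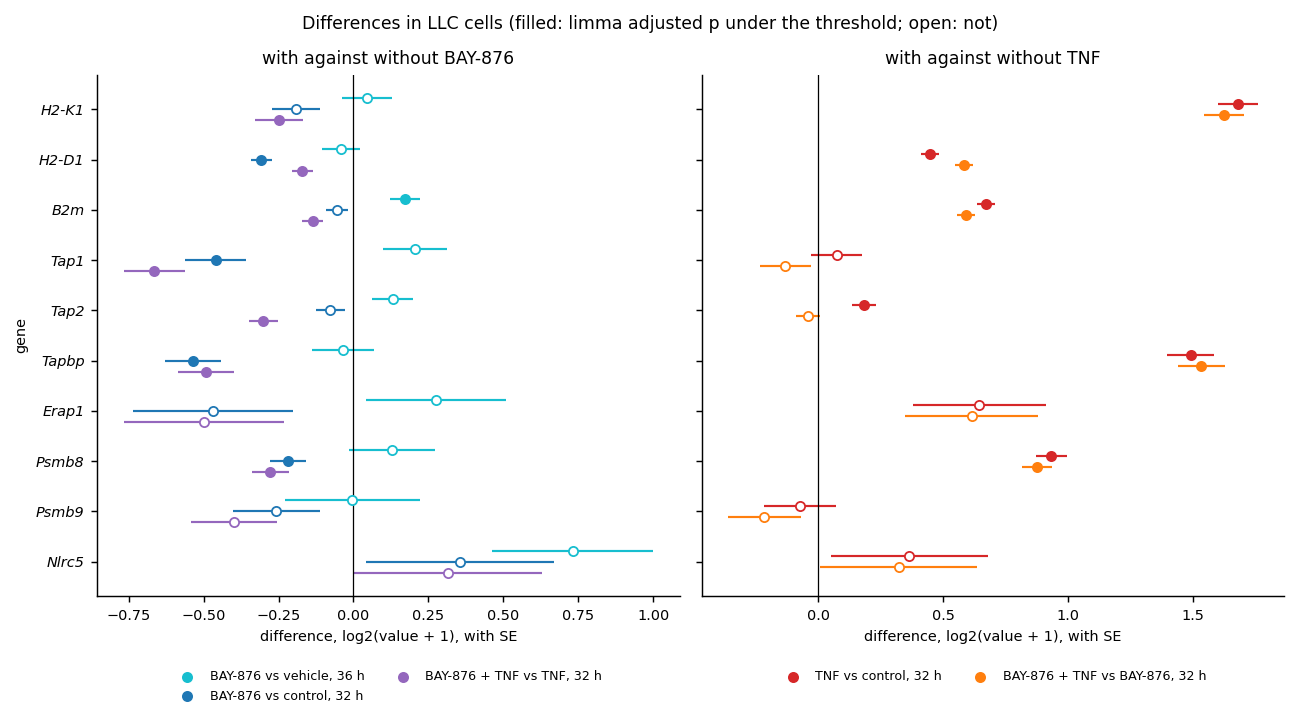
Differences of each gene on the log2(value + 1) scale with SE; the left panel shows the 3 comparisons of cells with and without BAY-876, the right panel the 2 of cells with and without TNF. Filled points have a limma adjusted p under 0.05; H2-K1 and Tapbp lie at 1.49 to 1.68 with TNF in both backgrounds, Tap1 and Psmb9 near or under 0, and at 32 h all genes but Nlrc5 lie at or under 0 with BAY-876.

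The authors' deposited table of each of 4 comparisons at 32 h was set beside these calls. The share of all genes called there is not given, so the counts below serve only to compare calls gene by gene. The authors' deposited table called 7 of the 10 genes higher for TNF against control, the 6 above and Nlrc5 (log2 0.59). For TNF in BAY-876-treated cells the authors' deposited table called 6 higher, the 5 above and Erap1 (log2 0.74). For BAY-876 against control the authors' deposited table called 3 lower, H2-D1, Tap1 and Tapbp. For BAY-876 in TNF-treated cells the authors' deposited table called 4 lower, H2-K1, Tap1, Tap2 and Tapbp, and not H2-D1 (log2 −0.08), B2m (log2 −0.05) or Psmb8 (log2 −0.19).

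At 36 h, BAY-876 against vehicle changed little in this set: B2m was called higher, and none of the 10 was called lower. Of 12937 genes tested, 7.34% were called higher and 7.1% lower. For 3 of the 10 the groups did not overlap, all higher, as for 18.3% of all genes higher and 18.4% lower. B2m read 3274, 3386 and 3404 normalized counts with vehicle and 3923, 3737 and 3679 with BAY-876 (log2 0.17, SE 0.05, limma adjusted p = 0.0499). Although the groups were apart, the call was lost with no filter (limma adjusted p = 0.0815) and when any library but BAY-876 replicate 1 was left out (limma adjusted p = 0.0781 to 0.166). At an unadjusted p under 0.05 there were 2 genes higher, B2m and Nlrc5, and 0 lower. The share of all genes at that looser threshold is not given, so this count is not a result about the set.

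Tap1 was at 265, 232 and 227 normalized counts with vehicle and 277, 292 and 266 with BAY-876 (log2 0.21, SE 0.11, limma adjusted p = 0.229). Tap2 was at 914, 914 and 919 with vehicle and 1069, 955 and 989 with BAY-876 (log2 0.13, SE 0.07, limma adjusted p = 0.233). Neither overlapped, yet neither passed. Nlrc5 was at 66.8, 85.6 and 46.0 with vehicle and 104, 143 and 82.7 with BAY-876 (log2 0.73, SE 0.27, limma adjusted p = 0.1001). Tapbp (log2 −0.03, SE 0.10) and H2-D1 (log2 −0.04, SE 0.06), both lower with BAY-876 in the 32 h experiment, had overlapping groups here. H2-K1 (log2 0.05), Psmb8 (log2 0.13), Psmb9 (log2 −0.0036) and Erap1 (log2 0.27) overlapped too. The experiments differ in time, in pretreatment and in the table's unit, so these values are given side by side and were not tested against each other.

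Tumour cells of day 16 carried all 10 genes above their levels in culture. In tumour cells H2-K1 averaged 2077 ± 122 TPM (SD, n = 5), against 71.2 ± 5.07 TPM (SD, n = 3) in control culture and 230.0 ± 6.64 TPM with TNF in culture. Nlrc5 averaged 73.8 ± 10.2 TPM, against 2.05 ± 0.256 TPM in control culture. The ratio of means of tumour cells to control culture was 36.0 for Nlrc5, 29.2 for H2-K1, 12.999 for Tap1, 12.5 for Psmb8 and 11.4 for Psmb9. It was 7.78 for B2m, 7.06 for H2-D1, 5.55 for Tapbp, 4.83 for Erap1 and 2.62 for Tap2. Each gene's lowest tumour library was above its highest library of any culture group at 32 h. OT1 cells were also above culture for all but Tapbp, for which OT1 libraries (335 to 442 TPM) overlapped those of culture with TNF (295 to 343 TPM). The tables were normalized separately, and the cells differ in line, setting and sort, so no test was made across them. The share of all genes placed above culture in this way is not given, so neither pattern is shown to be particular to these genes.

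OT1 cells against tumour cells showed 7 of the 10 genes higher and 1 lower, where 30.1% and 44.4% of 13511 genes were called. Without overlap were 7 members higher and 1 lower, against 25.3% and 37.8% of all genes. The median log2 difference of the 10 was 0.65, against −0.21 over all genes tested. Nlrc5 was at 157 to 202 TPM in OT1 libraries, median 183, and 60.0 to 86.4 TPM in tumour libraries, median 73.6 (log2 1.29, SE 0.11, limma adjusted p = 5.18e-07). Psmb9 was at 174, 198, 200.3, 211 and 219.6 TPM in OT1 and 77.4, 82.0, 86.8, 87.5 and 91.6 TPM in tumour cells (log2 1.23, SE 0.08, limma adjusted p = 8.43e-08). For both genes the lowest OT1 library was well above the highest tumour library.

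Tap1 was at 236, 239, 241, 246 and 262 TPM in OT1 and 102, 114, 127, 146 and 147 TPM in tumour cells (log2 0.95, SE 0.10, limma adjusted p = 5.11e-06). H2-K1 was at 3417, 3481, 3913, 4278 and 4852 TPM in OT1 and 1974, 2000.1, 2010.1, 2139 and 2263 TPM in tumour cells (log2 0.93, SE 0.11, limma adjusted p = 1.18e-05). Psmb8 was at 559.8, 636, 651, 652 and 657 TPM in OT1 and 341, 358, 363, 365 and 374 TPM in tumour cells (log2 0.81, SE 0.07, limma adjusted p = 7.25e-07). All 3 were without overlap. B2m was at 4157, 4260.0, 4775, 5424 and 5789.7 TPM in OT1 and 3243, 3269, 3481, 3559 and 3695 TPM in tumour cells (log2 0.49, SE 0.11, limma adjusted p = 0.00205).

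Tap2 was also called higher, at 132.3 to 145 TPM in OT1 and 87.6 to 131.8 TPM in tumour cells (log2 0.26, SE 0.11, limma adjusted p = 0.0447). The ranges all but touched, and the call was lost with no filter (limma adjusted p = 0.0650) and without tumour replicate 1 or 4 or OT1 replicate 1, 2, 3 or 4 (limma adjusted p = 0.0621 to 0.0905). Tapbp was the member called lower, at 335, 349, 408, 416 and 442 TPM in OT1 and 472, 581, 681, 694 and 755 TPM in tumour cells (log2 −0.69, SE 0.13, limma adjusted p = 0.000502). H2-D1 did not differ beyond its spread, at 2021, 2125, 2156, 2497 and 3675 TPM in OT1 and 2246, 2644, 2681, 2744 and 2748 TPM in tumour cells (log2 −0.10, SE 0.16, limma adjusted p = 0.579). Erap1 was at 50.2 to 65.8 TPM in OT1 and 51.9 to 69.9 TPM in tumour cells (log2 −0.22, SE 0.11, limma adjusted p = 0.0816). Erap1 passed without tumour replicate 5 (log2 −0.29, limma adjusted p = 0.0188) or OT1 replicate 2 (log2 −0.28, limma adjusted p = 0.0268).

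**Figure D3:**
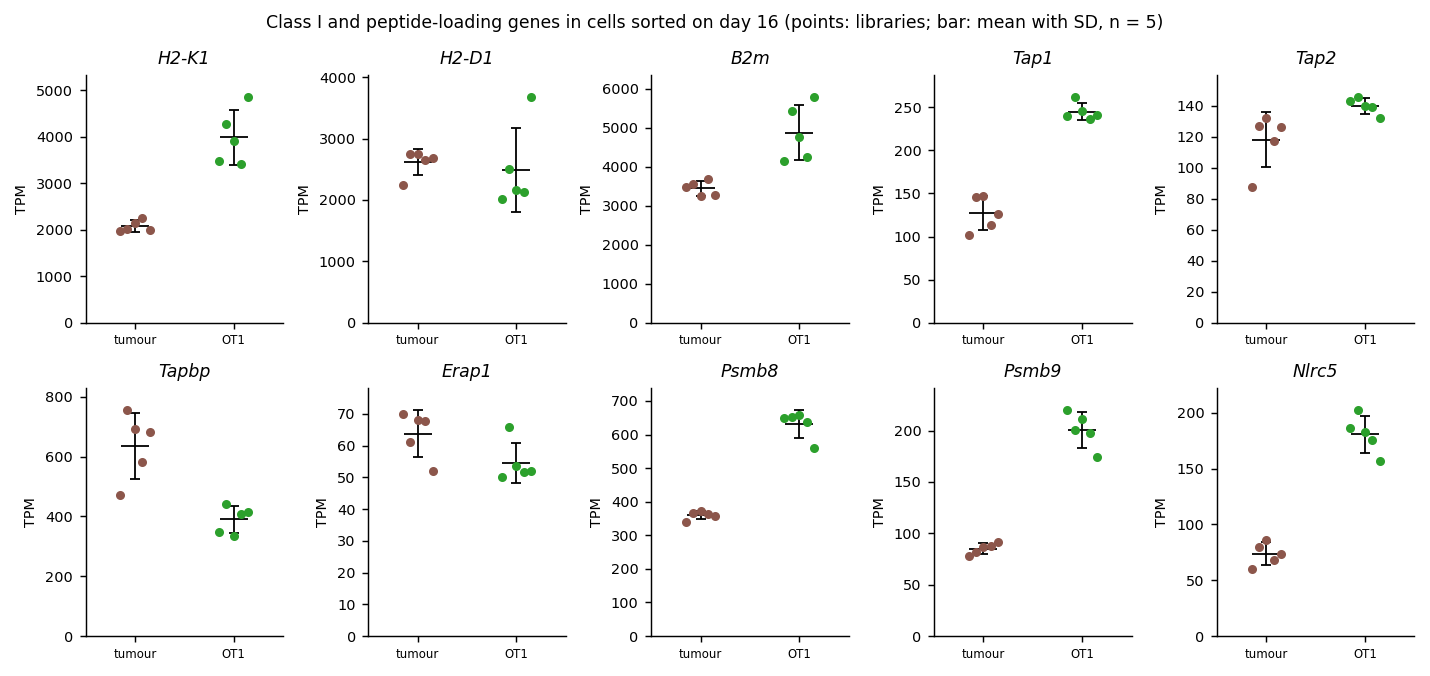
TPM of each gene in the 5 tumour and 5 OT1 libraries of day 16 on linear axes from 0; points are libraries and bars the mean with SD. Nlrc5, Psmb9, Tap1, H2-K1, Psmb8 and B2m are higher in all OT1 libraries, Tapbp is lower in all of them (335 to 442 against 472 to 755 TPM), and H2-D1 and Erap1 overlap.

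Myeloid RNA differed between the OT1 libraries. From OT1 replicate 1 to 5 the summed TPM of the 18 myeloid markers was 2352, 7458, 4028, 5072 and 18736. Replicate 5, with the most, had the highest H2-D1 (3675 TPM), H2-K1 (4852 TPM) and B2m (5789.7 TPM) and the lowest Psmb8 (559.8 TPM), Psmb9 (174 TPM) and Nlrc5 (157 TPM). Without OT1 replicates 2, 4 and 5, left out as an added alternative once their marker sums were known, 6 of the 10 genes were higher and 2 lower. H2-D1 was then called lower in OT1, at log2 −0.32 (limma adjusted p = 0.0221), and without replicate 5 alone it was at −0.25 (limma adjusted p = 0.0232). Tap2 was no longer called (log2 0.27, limma adjusted p = 0.138). Nlrc5 at 1.33, Psmb9 at 1.33, Tap1 at 0.94, Psmb8 at 0.86, H2-K1 at 0.83, B2m at 0.37 and Tapbp at −0.88 kept their calls, with limma adjusted p of 0.00855 or below. Only OT1 replicates 1 and 3 remained in that fit. The share of all genes called in it is not given, so its counts cannot be set against one. Their myeloid sums, 2352 and 4028 TPM, were still far above those of the tumour libraries (53.0 to 172 TPM), so myeloid RNA was lessened and not removed.

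**Figure D4:**
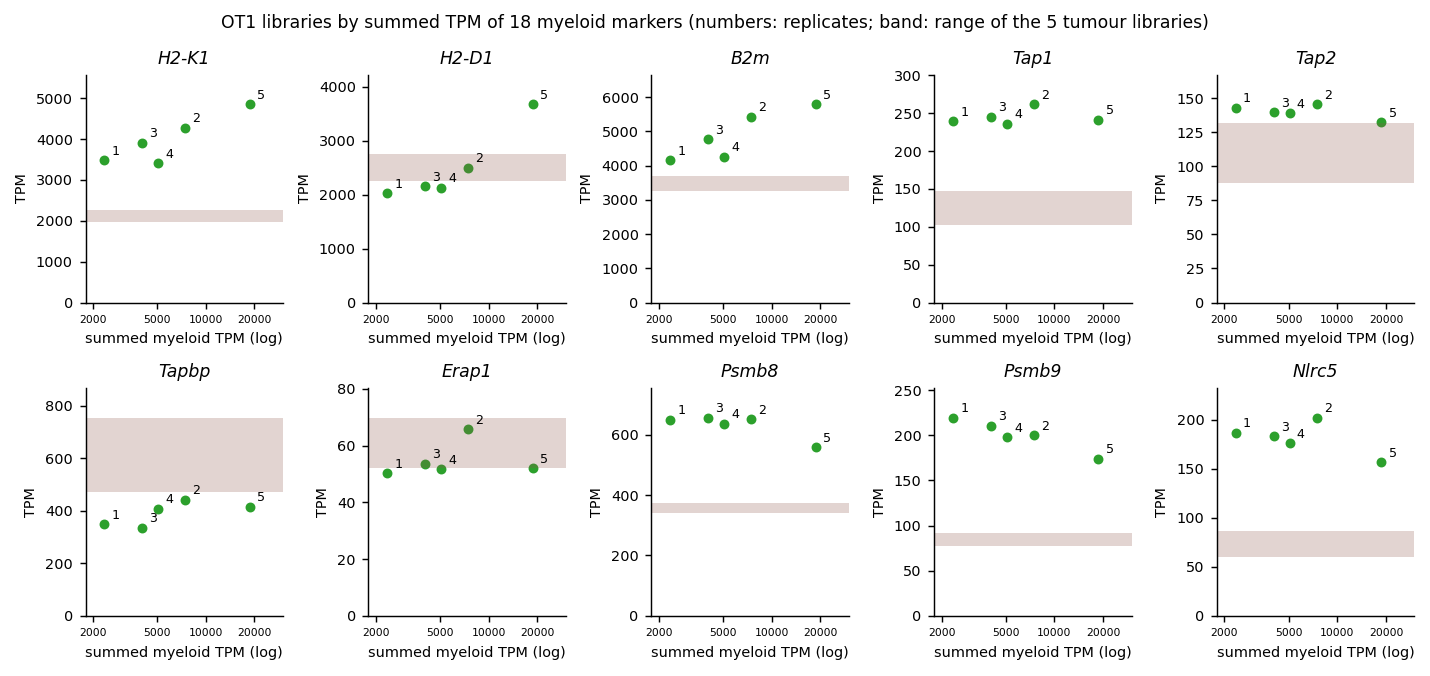
TPM of each gene in the 5 OT1 libraries (linear axis from 0) against the summed TPM of 18 myeloid markers (log axis); numbers are replicates and the band is the range of the 5 tumour libraries. Replicate 5 lies farthest right, at 18736 TPM, and above the band for H2-D1 (3675 TPM), while the other 4 OT1 libraries lie in or under that band.

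Shares within a library do not depend on library scaling, and 4 of them were followed, as 24 ratios and pairs of groups in all. With 3 libraries against 3 the exact permutation test cannot go below p = 0.1, so in culture these shares are described by their ranges. H2-K1 made up 15.3 to 17.03% of the summed H2-K1 and H2-D1 TPM in control and 30.4 to 32.4% with TNF. With BAY-876 it was 15.5 to 18.3%, and with both agents 29.9 to 30.6%, so libraries with TNF were above those without it in both backgrounds. On day 16 it was 44.3 ± 2.02% in tumour cells and 61.9 ± 2.96% in OT1 cells (SD, n = 5), without overlap (exact two-sided permutation p = 0.00794, adjusted p = 0.0476, the smallest that 5 against 5 allows).

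Psmb8 made up 8.01 ± 0.608% of summed Psmb8 and Psmb5 in control, 6.72 ± 0.230% with BAY-876, 11.1 ± 0.561% with TNF and 8.78 ± 0.398% with both (SD, n = 3). The TNF libraries were above all others, and those with both agents partly overlapped control. Psmb10, the third inducible subunit, rose in share from 6.84 to 8.54% in control to 14.3 to 15.4% with TNF, beside Psmb7. Psmb9 went the other way beside Psmb6, with 1.68 to 2.15% in control, 1.31 to 1.51% with TNF and 0.713 to 1.19% with both agents. On day 16 the shares in tumour and OT1 cells were 58.1 and 77.7% for Psmb8, 19.8 and 42.1% for Psmb9, and 44.0 and 51.8% for Psmb10. Each of these 3 differed without overlap (exact two-sided permutation p = 0.00794, adjusted p = 0.0476).

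**Figure D5:**
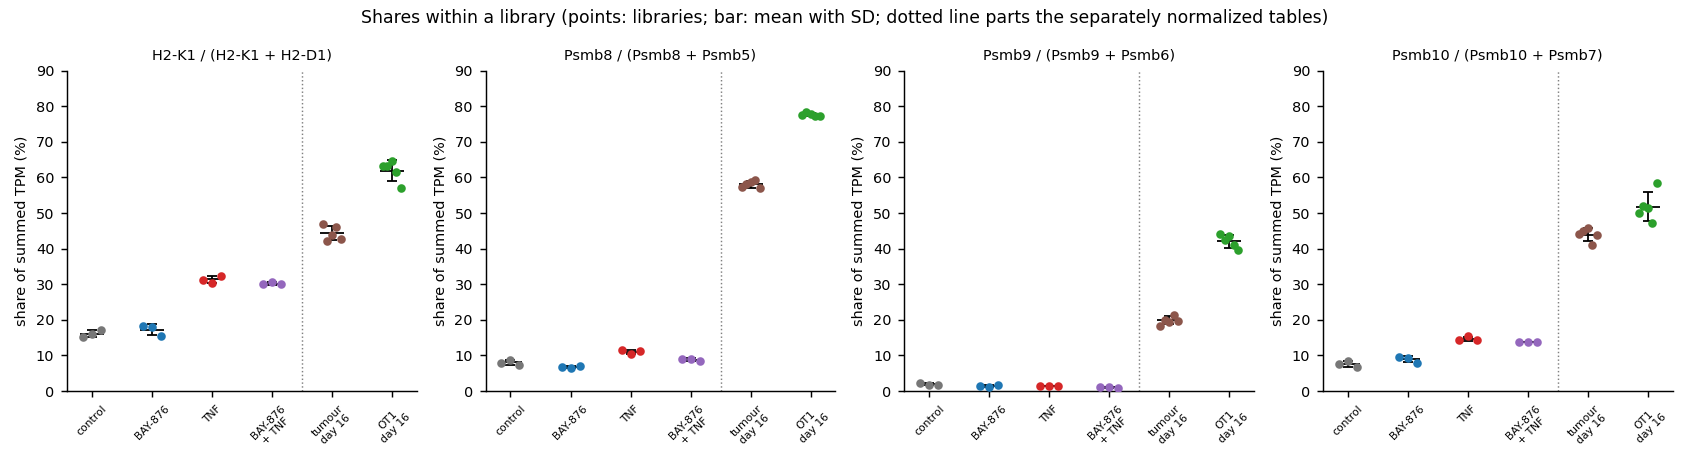
Share of the first gene in the summed TPM of a pair, in percent on axes from 0, for the 4 groups at 32 h and the 2 of day 16; points are libraries, bars the mean with SD. The H2-K1 share is about level between control (16.1%) and BAY-876 (17.3%) and between TNF (31.3%) and both agents (30.2%), and each share is highest in OT1 cells.

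Genes around these 10 were read from 6 lists. Among loading complex and peptide supply partners, TNF raised 8 of 13 and lowered 3, where 19.4% of all genes were higher and 26.1% lower, with a median log2 difference of 0.45 against −0.06 over all genes. Psmb10 averaged 57.0 TPM with TNF and 20.7 TPM in control (log2 1.43, limma adjusted p = 3.43e-07), and Psme3, a proteasome activator, rose by 0.47. Pdia3, the thiol oxidoreductase of the loading complex, fell by 0.44 (limma adjusted p = 7.12e-07). BAY-876 raised 2 of the 13 and lowered 5 in the absence of TNF, among them Pdia3 (log2 −0.31) and the chaperone Calr (log2 −0.17), where 11.5% of all genes were higher and 25.8% lower. The list's median was −0.10, against −0.09 over all genes. In the presence of TNF it lowered 5 and raised 0, where 23.6% of all genes were lower and 10.4% higher, and the list's median was −0.08, as over all genes. All 3 constitutive counterparts rose with TNF, Psmb5 by 0.44, Psmb7 by 0.41 and Psmb6 by 0.35, and with BAY-876 at 32 h Psmb7 alone was called (log2 0.10, limma adjusted p = 0.0346). On day 16 all 3 were lower in OT1 cells, by 0.85 for Psmb7, 0.52 for Psmb5 and 0.32 for Psmb6.

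Of the other class I and class Ib genes, TNF raised 2 of 11 and lowered 3, near the shares of all genes (19.4% higher and 26.1% lower), with a median log2 difference of −0.05 against −0.06 over all genes. H2-Q4 rose by 0.79, while the class I-like genes Mr1, which presents vitamin metabolites, and Fcgrt, the neonatal Fc receptor, fell by 0.74 and 1.56 (each with limma adjusted p of 9.98e-06 or below). BAY-876 without TNF lowered 6 of these 11 and raised 0, where 25.8% of all genes were lower and 11.5% higher, with Mr1 at log2 −1.02, H2-T23, which encodes Qa-1, at −1.04 and H2-T22 at −0.47 (limma adjusted p of 0.000251 or below). In TNF-treated cells it lowered 4, where 23.6% of all genes were lower, among them Mr1 (log2 −1.11), H2-T22 (log2 −0.70) and H2-T23 (log2 −0.68). On day 16, 10 of 15 were higher in OT1 cells and 1 lower, where 30.1% of all genes were higher and 44.4% lower, with H2-Q7 at 849 against 207 TPM. H2-Q2 and H2-Q10, among the 15, were under 1 TPM in all tumour libraries and passed the filter only through OT1 libraries. Their direction was thus fixed by the filter. Without OT1 replicates 2, 4 and 5 this list had 7 higher and 3 lower of 13, and the share of all genes in that fit is not given. Genes high only in OT1 could not reach the filter's 5 libraries there, so both counts cover different genes.

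Of the transcription factors of class I genes, TNF raised 8 of 16 and lowered 2, where 19.4% of all genes were higher and 26.1% lower. Relb, an NF-kappaB subunit, averaged 30.5 TPM with TNF and 4.22 TPM in control (log2 2.599, limma adjusted p = 1.73e-08), Nfkb1 rose by 1.09 and Irf1 by 1.17. BAY-876 without TNF lowered 3 of the 16 and raised 1, where 25.8% of all genes were lower and 11.5% higher. It lowered Irf1 from 15.5 to 8.30 TPM without TNF (log2 −0.83, limma adjusted p = 3.82e-05) and from 36.1 to 25.2 TPM with it (log2 −0.50, limma adjusted p = 0.00122). In TNF-treated cells it lowered 7 of the 16, Nfkb1 (log2 −0.29) and Creb1 (log2 −0.33) among them, and raised 0, where 23.6% of all genes were lower and 10.4% higher. TNF raised 5 and lowered 2 of 11 genes of interferon receptors and their signalling, where 19.4% of all genes were higher and 26.1% lower. The 11 include Irf1 and, beside the genes of interferon gamma, Ifnar1, Ifnar2 and Tyk2 of the type I interferon receptor. BAY-876 without TNF lowered 8 of these 11 and raised 0, where 25.8% of all genes were lower and 11.5% higher, with Ifngr1 at 15.5 against 27.5 TPM (log2 −0.79, limma adjusted p = 3.64e-05). Ifnar1, Ifnar2 and Tyk2 were among the 8. In TNF-treated cells BAY-876 lowered 5 of the 11 and raised 0, where 23.6% of all genes were lower, Ifngr1 by 0.94 and Tyk2 by 0.49.

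At 36 h BAY-876 raised Calr (log2 0.36), Tapbpl (log2 1.09), H2-Q4 (log2 0.48), Relb (log2 0.70) and Stat2 (log2 0.76), with limma adjusted p of 0.0196 or below, and Psme3 fell by 0.26 (limma adjusted p = 0.00818). By list, 3 of 13 loading and supply partners were called higher and 1 lower. Higher were also 1 of 11 other class I genes and 2 of 17 transcription factors, with 0 lower. Of 11 interferon receptor and signalling genes 0 were called. Over all genes, 7.34% were higher and 7.1% lower. Tapbpl, H2-Q4, Relb and Stat2 each lost the call without vehicle replicate 3 (limma adjusted p = 0.0617 to 0.0737), and each of them without 1 or more other libraries. Of 4 class II pathway genes tested in culture, TNF raised 1 and lowered 2, where 19.4% of all genes were higher and 26.1% lower, and their median log2 difference was −0.37. The gene counted as raised was Cd74, the invariant chain, with a mean of 0.162 TPM in control and 1.60 TPM with TNF (log2 1.19, limma adjusted p = 0.00182). Cd74 was near the floor, under 1 TPM in every culture library without TNF at 32 h. It passed the filter only through libraries with TNF, so its direction was fixed by the filter. Both chains of the class II peptide exchanger fell, H2-DMb1 from 42.2 to 28.4 TPM (log2 −0.55, limma adjusted p = 7.17e-05) and H2-DMa from 11.4 to 6.49 TPM (log2 −0.77, limma adjusted p = 0.00681). On day 16, 8 of 9 class II genes were higher in OT1 cells and 0 lower, where 30.1% of all genes were higher and 44.4% lower, with H2-Ab1 at 1326 against 47.6 TPM, beside the myeloid sums above, whose part in this was not tested. H2-Oa and H2-Ob, among the 9, were under 1 TPM in all tumour libraries and passed the filter only through OT1 libraries. Their direction was thus fixed by the filter. Without OT1 replicates 2, 4 and 5 the class II list had 5 higher and 1 lower of 7, while 13 of 13 myeloid markers tested were still higher in OT1. The share of all genes in that fit is not given. Genes high only in OT1 could not reach the filter's 5 libraries there, so these counts and those with all libraries cover different genes. Ifngr1, the ligand-binding chain of the interferon gamma receptor, was at 329 TPM in OT1 and 26.7 TPM in tumour cells.

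Across the 12 libraries of the 32 h experiment, Pearson's r of each gene with the mean standardized profile of the 10 ranged from 0.26 for Psmb9 and 0.28 for Nlrc5 to 0.94 for H2-D1 and Tapbp. Tap1 stood at 0.45. Each member is part of that mean, which raises its r, so these values are not alike to those of genes outside it. Outside the lists, the 5 most alike of 9122 genes were Sbno2 (r = 0.98), Foxf2 (r = 0.98), Lsm11 (r = 0.97), Gfm1 (r = 0.97) and Tagln2 (r = 0.97). Sbno2 averaged 12.5, 10.0, 26.9 and 16.3 TPM in control, BAY-876, TNF and both agents. The libraries share treatments, so these values are descriptions.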

How the data were processed

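The members and lists were chosen with earlier results of these data known. Per the labels' protocols, Trizol was used for RNA and a SMARTER kit for mRNA libraries. The submitters' processing notes of the authors list STAR 2.6.1d, Salmon 0.14.1 (36 h) or 0.13.1 (32 h, day 16), DESeq2 1.34.0 and mm10, with no role for any. The deposited 32 h and day 16 values are TPM, summing to 1000000 per library, as the authors scaled them. The deposited 36 h values are a normalized count signal that the authors made with DESeq2, per the table's name. The authors' deposited comparison tables hold log2 fold changes and adjusted p-values. No sample matched 24 columns of the 32 h table, which stayed unused.

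The scale was log2(value + 1). Genes needed 1 TPM or 10 normalized counts in 3 libraries (5 on day 16). Tests used limma 3.58.1 (R 4.3.3) with a trend of variance on mean, with all 12 libraries at 32 h fitted together, Benjamini-Hochberg adjustment over all genes, and a threshold of 0.05. The fit was checked on simulated data. Groups follow the labels, and tables were never tested against each other. Ratios were compared by exact two-sided permutation (SciPy 1.17.1). The genes named are all 10 members, from each list mostly those among the 3 with the smallest p in a comparison, the highest and lowest marker of other cell types, and the 5 genes most alike. A few further list genes were named to show a list's make-up, a receptor's other chain or the reach of the filter. The alternatives changed the pseudocount (to 0.1 TPM or 10 counts), the filter (none, or a mean of 5 TPM or 100 counts), the scaling (quantile normalization) or the libraries (single ones left out, only those compared), or added the replicate block. Leaving out OT1 replicates 2, 4 and 5 was chosen after seeing the data.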

Additional observations from a re-analysis of the deposited data

Results flagged for a closer look

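On day 16, 20 groups of 5 values (10 genes in tumour and in OT1 libraries) were searched for a library far from the others, by Dixon's gap test, of which chance flags about 1 in 20. H2-D1 in tumour replicate 1 was the lowest of its group at 2246 TPM, with the next at 2644 TPM. H2-D1 in OT1 replicate 5 was the highest at 3675 TPM, with the next at 2497 TPM. Psmb8 in OT1 replicate 5 was the lowest at 559.8 TPM, with the next at 636 TPM. Erap1 in OT1 replicate 2 was the highest at 65.8 TPM, with the next at 53.6 TPM. OT1 replicate 5 also had the most myeloid RNA of the OT1 libraries, at 18736 TPM over the 18 markers, and its part in these values was not tested.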

How the results depend on the processing

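Of the alternative counts of members called, 255 stayed within 1.5 times and 13 moved further. The count called higher with BAY-876 at 36 h was 0 with no filter and 0 to 1 when each library was left out. The count lower with both agents against control was 1 after quantile normalization and 1 to 3 when each library was left out. The count lower in OT1 cells was 1 to 2 when each library was left out and 2 without OT1 replicates 2, 4 and 5.

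Values that changed sign were all uncalled. At 36 h, leaving out each library gave −0.11 to 0.010 for H2-D1, −0.023 to 0.11 for H2-K1, −0.0029 to 0.26 for Psmb8, −0.22 to 0.12 for Psmb9, −0.13 to 0.05 for Tapbp, −0.080 to 0.033 for H2-DMb1 and −0.43 to 0.038 for the log2 ratio of Psmb9 to Psmb6, and the other pseudocount gave 0.00045 for Psmb9. For both agents against control Erap1 ranged from −0.041 to 0.50. Nlrc5 ranged from −0.10 to 0.63 for TNF with BAY-876 and −0.11 to 0.62 for BAY-876 with TNF. Psmb9 with TNF ranged from −0.15 to 0.021 and was 0.11 after quantile normalization, under which Tap1 was 0.021 for TNF with BAY-876. The interaction ranged from −0.38 to 0.15 for Erap1, −0.15 to 0.024 for H2-K1, −0.46 to 0.27 for Nlrc5, −0.24 to 0.0086 for Psmb9 and −0.079 to 0.11 for Tapbp. The cause was not tested.

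Groups share replicate numbers, without any label for what a number marks. The deviations of same-numbered libraries correlated between −0.19 and 0.12 (32 h), −0.074 and −0.019 (36 h), and 0.045 and 0.11 (day 16). For different numbers these were −0.19 to 0.22 (32 h), −0.014 to 0.058 (36 h) and −0.17 to 0.11 (day 16). On day 16 the mean was 0.072 for the same number and −0.017 for different numbers. The main fit took no pairs, and whether a day 16 number marks a shared tumour was not tested. Each library correlated best with its own number in 14 of 36 cases at 32 h, 0 of 6 at 36 h and 7 of 10 on day 16. With the replicate number as a block, B2m at 36 h (log2 0.17, limma adjusted p = 0.0911) and Tap2 on day 16 (log2 0.26, limma adjusted p = 0.0634) lost their calls, and Nlrc5 at 36 h gained one (log2 0.73, limma adjusted p = 0.0356). The number of members called differed by at most 1 under the block. TPM hold no depth, so no counting error can be given.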
